A study of Mus musculus with 22 samples.

Results

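Loss of the surface protein CD24 was followed in gamma-delta thymocytes that carry a Vg1.1 receptor, by setting 4 arrays of Vg1.1+ CD24-CD73+ cells against 3 arrays of Vg1.1+ CD24+CD73+ cells across all genes. The 7 arrays, out of 22 in the series, are all those whose labels give these 2 groups. All RNA came from the thymus of female C57BL/6 mice aged 8 weeks, untreated and, as far as the labels say, not genetically altered. The series sorted Vg1.1+ and Vg2+ thymocytes by CD24 and CD73 into 6 groups of 3 or 4 arrays. Replicates are described as biological, but whether separate animals gave each one is not stated. The p-values therefore measure only how these samples vary, and precision is limited by the number of arrays. Values are log2 expression values after robust multi-array averaging (RMA), in which 1 unit is a doubling, and a difference is always CD24-CD73+ minus CD24+CD73+.

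Gamma-delta T cells branch off from alpha-beta T cells in the thymus while both still carry CD24. Gain of CD73, an enzyme that makes adenosine outside the cell, follows signalling through the gamma-delta receptor, and loss of CD24 marks the mature thymocyte. Many adult thymocytes with a Vg1.1 receptor acquire an innate-like programme and can make interleukin 4, whereas many with a Vg2 receptor are set to make interleukin 17. In such sorted bulk samples, fewer cells of a type and less RNA per cell cannot be told apart.

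The transcript of the sorted protein CD73, Nt5e, read 7.85, 8.31 and 8.00 on the CD24+CD73+ arrays and 7.45, 8.57, 8.57 and 8.74 on the CD24-CD73+ arrays. The groups overlapped, but only through the 7.45 of CD24-CD73+ replicate 1, and without that array they did not. The gene for CD24 is not analysed here, because its probe set lists several symbols. Cd3g, a chain of the receptor complex, read 10.90 to 11.08 and 10.65 to 11.20. One array stood apart. Replicate 1 of the CD24-CD73+ cells had an SD over all probe sets of 1.61, against 1.96 to 2.07 on the other 6 arrays, and correlated with its own group at r = 0.875 to 0.910, where the other 3 arrays correlated among themselves at 0.963 to 0.984. Results that change without this array are given with and without it.

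Of 8545 tested genes, 957 (11.2%) were called at an adjusted p under 0.05 (limma, Benjamini-Hochberg). In CD24-CD73+ cells 366 genes (4.28%) rose and 591 (6.92%) fell. Every count of rising or falling list members in Vg1.1+ cells given below is to be read against these shares. The median difference over all tested genes was -0.04, and the median size of a call was 0.71 in either direction. A difference of at least 2-fold was reached by 114 rising and 143 falling genes, whereas larger changes went mostly upward. A difference of at least 4-fold was reached by 19 rising and 4 falling genes, and one of at least 8-fold by 9 rising genes and 1 falling gene, Cpa3. The 9 were Fabp7, Icos, Il4, Cxcr3, Slfn1, Trpm6, Vdr, Il18r1 and a predicted gene, A630023P12Rik. Several large risers, Fabp7, Trpm6 and Vdr among them, passed the level for testing only through the CD24-CD73+ arrays of Vg1.1+ cells. Their being tested and their rise are thus not independent, which favours rises in these counts. Of the 957 called genes, 515 (189 higher, 326 lower) were called whichever of the 7 arrays was left out, and 442 were lost in at least 1 such fit. All 4 CD24-CD73+ arrays lay above all 3 CD24+CD73+ arrays for 751 genes (8.79%) and below them for 1221 (14.3%).

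**Figure D1:**
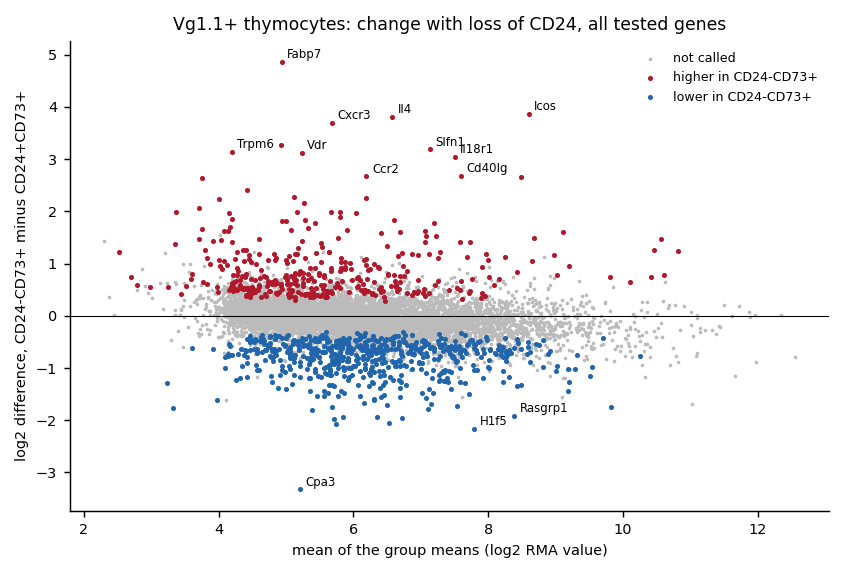
Difference in log2 RMA value between CD24-CD73+ and CD24+CD73+ Vg1.1+ cells (vertical axis) against the mean of both group means (horizontal axis), with 1 point per tested gene. Red points are the 366 genes called higher and blue points the 591 called lower; the red points reach 4.86 (Fabp7) and the blue points -3.32 (Cpa3).

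Cytokine genes gave some of the largest changes. In the list of type 2 and follicular helper cytokines Il4, Il13 and Il21 rose, and the other 7 of its 10 members were measured below the level needed for testing. Il21 passed that level only on the CD24-CD73+ arrays of Vg1.1+ cells, with a mean below the table median in each of the other 5 groups, so its passing and its rise are not independent. Il4, the defining type 2 cytokine, read 4.84, 4.53 and 4.63 on the CD24+CD73+ arrays and 8.47, 9.06, 8.10 and 8.30 on the CD24-CD73+ arrays. The lowest mature array was therefore more than 3 units above the highest immature one, and the difference was 3.81 ± 0.23 (SE; limma adjusted p = 4.0e-10). Il13, which acts on epithelium and mucus-making cells, read 4.87, 4.64 and 4.54, then 5.74, 6.73, 6.79 and 7.40, a difference of 1.98 ± 0.27 (adjusted p = 2.6e-05). Il21, a cytokine that helps B cells, read 2.97, 2.88 and 2.78, then 4.83, 5.38, 4.93 and 5.33, a difference of 2.24 ± 0.17 (adjusted p = 1.3e-08). The groups did not overlap for any of the 3. In Vg2+ cells the same step gave -0.30 for Il4, -0.21 for Il13 and -0.26 for Il21, none of them called, and the step differed between the subsets for each (adjusted p = 2.9e-08, 6.9e-04 and 3.1e-07).

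The receptors and regulators that accompany type 2 cytokines in innate-like T cells moved unevenly. Of 16 tested genes on that list, 4 rose and 1 fell, with a median of -0.05 that turned to 0.08 after cyclic loess normalisation. Icos, a costimulatory receptor, rose by 3.87 ± 0.21 (adjusted p = 5.7e-11), from 6.46 to 6.78 on the CD24+CD73+ arrays up to 9.98 to 10.84. Il17rb, the receptor chain for interleukin 25, read 6.67, 6.45 and 6.46, then 6.96, 8.00, 7.93 and 7.97, and rose by 1.19 ± 0.20 (adjusted p = 3.2e-04), while in Vg2+ cells it fell by 1.51. These opposite steps differed by 2.70 ± 0.27 (adjusted p = 1.3e-06). Zbtb7b, the transcription factor ThPOK, rose by 1.02 ± 0.12 (adjusted p = 3.6e-06), and Rora by 0.66 ± 0.15 (adjusted p = 0.00445). Il6st, the signalling chain gp130, fell by 1.50 ± 0.18 (adjusted p = 6.0e-06). In Vg2+ cells Icos, Zbtb7b and Rora rose too, by 3.06, 1.19 and 0.88, and Il6st fell by 1.18. None of these steps was called different between the subsets (adjusted p = 0.118, 0.574, 0.564 and 0.481). Gata3, the central type 2 transcription factor, read 8.04 to 8.14 before and 7.29 to 8.45 after, a difference of -0.09 that was not called (adjusted p = 0.835).

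Genes of the type 1 and cytotoxic programme divided. Among 17 tested, 6 rose and 3 fell, against 4.28% and 6.92% of all genes, and the median was 0.05. Cxcr3, a receptor for interferon-induced chemokines, read 3.69, 3.88 and 3.92, then 7.17, 7.67, 7.77 and 7.51, with no overlap and a difference of 3.70 ± 0.25 (adjusted p = 2.6e-09). Both chains of the interleukin 18 receptor rose, Il18r1 by 3.05 ± 0.15 (adjusted p = 3.0e-11) and Il18rap by 1.84 ± 0.26 (adjusted p = 3.4e-05). Tnf, a cytokine of activated T cells, rose by 1.22 ± 0.20 (adjusted p = 2.5e-04). Tbx21, the type 1 master regulator T-bet, read 4.73, 4.42 and 4.92, then 5.31, 5.05, 5.18 and 5.24. Its difference of 0.51 ± 0.16 was called narrowly (adjusted p = 0.0424), and adjusted p reached 0.0543 to 0.222 when CD24+CD73+ replicate 1 or 2 or CD24-CD73+ replicate 1, 3 or 4 was left out. Ifng, the type 1 cytokine itself, read 5.13 to 5.61 and 5.44 to 6.73, a difference of 0.60 that was not called (adjusted p = 0.155).

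The 3 falling genes of this programme were Gzma, Stat4 and Eomes. Gzma, a granule protease, read 6.58, 6.45 and 6.57, then 4.88, 5.60, 4.61 and 4.92, and fell by 1.53 ± 0.24 (adjusted p = 1.2e-04). Eomes, a T-box factor of killer cells, fell by 0.62 ± 0.12 (adjusted p = 0.00139), and Stat4, which relays interleukin 12 signals, by 0.67 ± 0.15 (adjusted p = 0.00335). Prf1, the pore former perforin, gave -0.22 (adjusted p = 0.299). Gzmb was measured below the level needed for testing and gave 1.74. The groups did not overlap for Gzma, Eomes or Stat4.

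**Figure D2:**
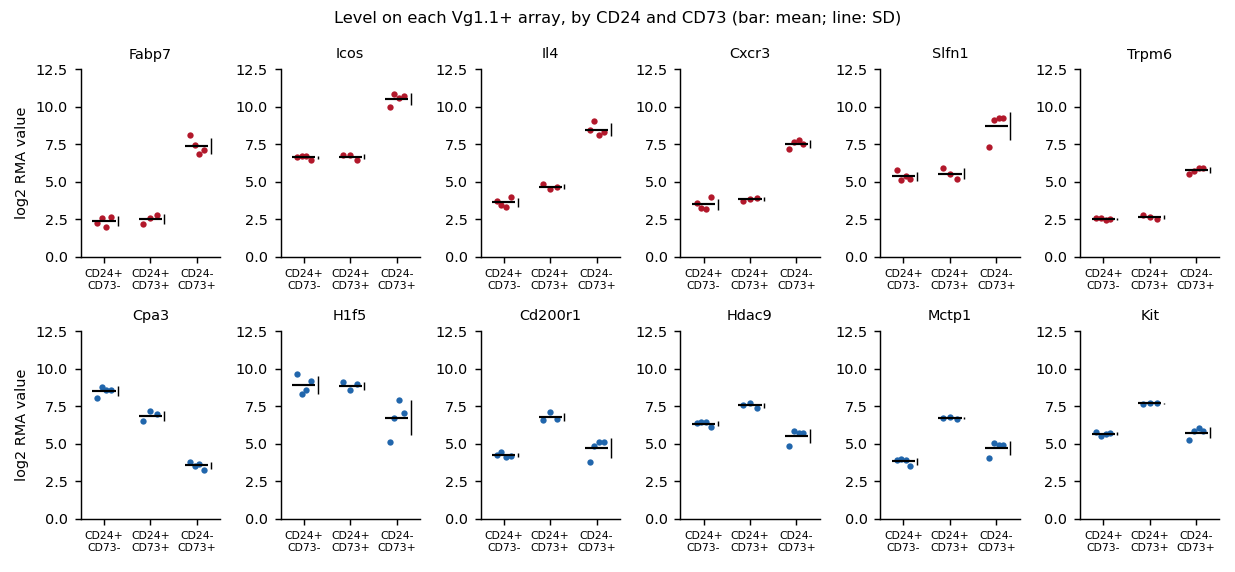
Level on each Vg1.1+ array (log2 RMA value, vertical axis) of the 6 rising and the 6 falling genes with the largest differences, predicted genes left out, in CD24+CD73-, CD24+CD73+ and CD24-CD73+ cells. Points are arrays, horizontal bars group means and vertical lines SD; CD24-CD73+ points lie clear of CD24+CD73+ points in all 12 panels.

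Most tested receptors of the natural killer type rose. Of 13 tested, 8 rose and 1 fell, with a median of 0.79, but without CD24+CD73+ replicate 3 only 5 rose. Over all genes 4.28% rose and 6.92% fell. Klrd1, the CD94 chain that pairs with NKG2 receptors, read 6.99, 7.42 and 7.04, then 9.56, 10.15, 9.49 and 10.04, a difference of 2.66 ± 0.22 (adjusted p = 3.8e-08). Klrb1f rose by 1.85 ± 0.26 (adjusted p = 3.4e-05) and the signalling adaptor Tyrobp (DAP12) by 1.52 ± 0.24 (adjusted p = 1.3e-04). Klrb1a rose by 1.18 ± 0.27 (adjusted p = 0.00614, or 0.0525 without CD24+CD73+ replicate 3). The adaptor Hcst (DAP10) rose by 0.79 ± 0.14 (adjusted p = 3.5e-04) and Cd226, an adhesion receptor of killer cells, by 0.70 ± 0.14 (adjusted p = 0.00174). Crtam, a receptor of the same nectin-binding family as Cd226, fell by 1.01 ± 0.26 (adjusted p = 0.0133, but 0.0565 without CD24+CD73+ replicate 1 and 0.0534 without replicate 3). The lectin-like genes sit in families of similar sequence, so probe sets may share signal between members.

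Homing and retention receptors changed in both directions. Of 17 tested chemokine and egress receptors 5 rose and 2 fell (3 rose without CD24+CD73+ replicate 3). Ccr2, which guides cells to inflamed tissue, read 4.86 ± 0.09 (SD, n = 3), then 7.65, 7.55, 7.54 and 7.38, with no overlap and a difference of 2.67 ± 0.14 (adjusted p = 4.3e-11). Its step was still smaller than in Vg2+ cells, where it rose by 5.08 (difference of steps -2.41 ± 0.19, adjusted p = 3.8e-08). Gpr183, a receptor for oxysterols that positions lymphocytes, rose by 1.12 ± 0.17 (adjusted p = 8.5e-05), likewise less than in Vg2+ cells (-1.31 ± 0.23, adjusted p = 0.00105). Ccr9, which binds the thymic and gut chemokine CCL25, read 8.53, 8.31 and 8.36, then 5.28, 6.91, 7.24 and 7.27, and fell by 1.72 ± 0.36 (adjusted p = 0.00232). Cxcr4, a retention receptor of thymocytes, fell from a mean of 7.85 to 6.75 (SE of the difference 0.18, adjusted p = 1.7e-04).

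S1pr1, the receptor that drives exit from the thymus, read 9.19, 9.23 and 9.02 on the CD24+CD73+ arrays and 7.21, 8.48, 8.99 and 8.70 on the CD24-CD73+ arrays, a difference of -0.80 that was not called (adjusted p = 0.128). Integrins and adhesion genes gave 2 higher and 1 lower call of 19, against 4.28% and 6.92% of all genes. Their median of -0.11 turned to 0.04 without CD24-CD73+ replicate 1 and to 0.03 after cyclic loess. The lower call was lost without CD24-CD73+ replicate 1 or any of the 3 CD24+CD73+ arrays, and 2 were lower without CD24-CD73+ replicate 3 or 4. Itgae, the integrin chain CD103 that binds epithelium, read 6.57, 6.20 and 6.19, then 7.59, 7.85, 8.13 and 7.83, and rose by 1.53 ± 0.15 (adjusted p = 4.0e-07). Cd44, an adhesion receptor of activated T cells, rose by 0.88 ± 0.10 (adjusted p = 3.6e-06), which was 0.88 ± 0.14 less than in Vg2+ cells (adjusted p = 3.3e-04).

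Costimulatory and cytokine receptors also shifted. Cd40lg, the ligand by which T cells help B cells and dendritic cells, read 6.17, 6.26 and 6.34, then 8.77, 9.03, 9.12 and 8.82. It rose by 2.68 ± 0.22 (adjusted p = 4.1e-08), whereas in Vg2+ cells it fell by 0.98, and these opposite steps differed by 3.66 ± 0.30 (adjusted p = 5.3e-08). Of 20 tested TNF superfamily genes 3 rose and 2 fell (1 fell when any array but CD24-CD73+ replicate 3 was left out), and Tnfsf8 (CD30 ligand) fell by 0.97 ± 0.12 (adjusted p = 7.8e-06). In the Cd28 family list 2 of 12 rose and 3 fell, where 4.28% of all genes rose and 6.92% fell. The falling members included Cd200r1, an inhibitory receptor, by 2.07 ± 0.27 (adjusted p = 1.7e-05), and Cd200, its ligand, by 1.28 ± 0.25 (adjusted p = 0.00126). Il7r, the survival receptor for interleukin 7, read 9.42, 9.67 and 9.21, then 9.69, 10.15, 10.45 and 10.42, and rose by 0.74 ± 0.17 (adjusted p = 0.00655, or 0.0576 without CD24+CD73+ replicate 3). Il10ra, the interleukin 10 receptor chain, fell by 1.02 ± 0.11 (adjusted p = 1.6e-06).

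The gene with the largest difference was Fabp7, a fatty acid binding protein best known from brain. It read 2.19, 2.54 and 2.80, then 8.11, 7.43, 6.83 and 7.13, a difference of 4.86 ± 0.25 (adjusted p = 3.0e-11), and it stayed between group means of 2.72 and 2.77 in Vg2+ cells (difference of steps 4.82 ± 0.34, adjusted p = 1.0e-08). Trpm6, a magnesium channel of kidney and gut, read 2.78, 2.63 and 2.49, then 5.53, 5.74, 5.90 and 5.91, a difference of 3.14 ± 0.11 (adjusted p = 1.1e-13). Vdr, the nuclear receptor for vitamin D, read 3.81, 3.68 and 3.53, then 5.66, 6.86, 7.19 and 7.46, a difference of 3.12 ± 0.29 (adjusted p = 2.0e-07). The deposited values carry no detection call, and these immature levels lay below the table median of 4.55, where RMA values compress differences. Fabp7, Trpm6 and Vdr passed the level for testing only through the mature Vg1.1+ arrays, so their being tested and their rise are not independent. Rxra, the partner with which Vdr binds DNA, rose by 0.82 ± 0.14 (adjusted p = 4.6e-04), and Adh1, an alcohol dehydrogenase that can oxidise retinol, by 1.99 ± 0.22 (adjusted p = 2.4e-06). Of 11 tested vitamin D and retinoid genes 4 rose and 1, Ccr9, fell.

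Further genes among the 25 largest rises included Flrt2, Ntrk3, Nrp1, Prg4, St8sia6 and Slfn1. Flrt2, a guidance and adhesion protein, read 2.72, 2.16 and 2.42, then 4.70, 5.27, 5.55 and 4.78, a difference of 2.64 ± 0.19 (adjusted p = 6.6e-09). Ntrk3, the neurotrophin 3 receptor, rose by 2.41 ± 0.20 (adjusted p = 4.5e-08), Nrp1, a semaphorin and VEGF co-receptor, by 1.97 ± 0.12 (adjusted p = 4.0e-10), and Prg4, the joint lubricant lubricin, by 2.07 ± 0.18 (adjusted p = 8.6e-08). In Vg2+ cells their steps lay between 0.01 and 0.34. All 4 lay at means of 2.29 to 3.69, below the table median, in the other 5 groups, and passed the level for testing only through the mature Vg1.1+ arrays, so that their being tested fixed the direction of the contrast with Vg2+ cells. St8sia6, a sialyltransferase, rose by 2.27 ± 0.31 (adjusted p = 2.6e-05). It likewise passed only through those arrays, with means of 3.57 to 4.42 in the other 5 groups. Slfn1, a Schlafen protein linked to T-cell quiescence, read 5.90, 5.53 and 5.19, then 7.34, 9.10, 9.26 and 9.25, and rose by 3.19 ± 0.33 (adjusted p = 1.0e-06). It was the only called gene among 6 tested Schlafen genes.

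**Figure D3:**
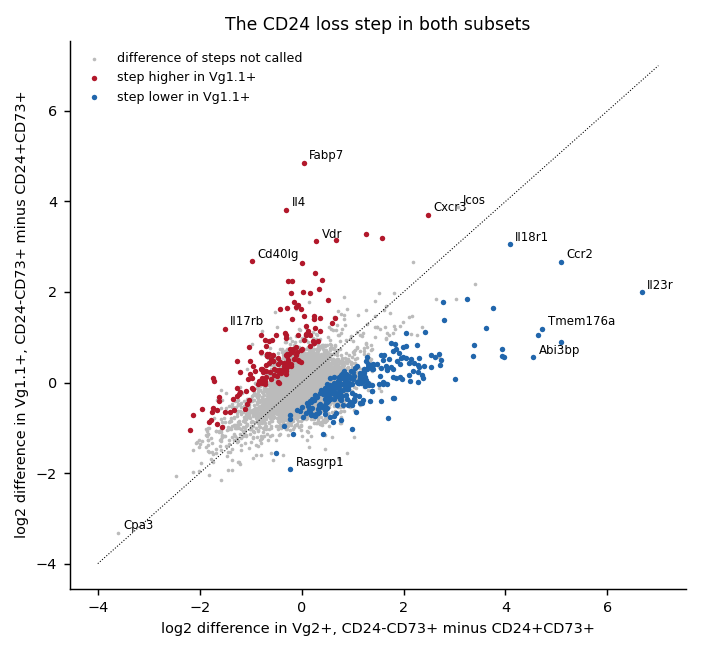
Difference with CD24 loss in Vg1.1+ cells (vertical axis) against the same difference in Vg2+ cells (horizontal axis), both in log2 RMA units, with 1 point per tested gene; the dotted line marks equal steps. Coloured points are the 432 genes whose steps differed between the subsets at an adjusted p under 0.05, with Fabp7 and Il4 high on the vertical axis alone and Il23r and Ccr2 far along the horizontal one.

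Loss of CD24 was tested for a difference between the subsets across all genes, with no array shared. Steps differed for 432 genes (5.06%), of which 156 (1.83%) were higher and 276 (3.23%) lower in Vg1.1+ cells. Of the 957 genes called in Vg1.1+ cells, 164 were among the 432. They comprised 80 that rose with a higher step, 38 that fell with a lower step, 32 that rose by less than in Vg2+ cells and 14 that fell by less. The 10 largest higher differences were Fabp7, Il4, Cd40lg, Vdr, Il17rb, Flrt2, Il21, Trpm6, Inka1 and Il13. At the other end stood Il23r, Ccr6, Abi3bp, Il1r1, Tmem176a, Tmem176b, Pxdc1, Cysltr1, Hlf and Zdhhc2, from -4.68 to -2.77. Among these, Il23r and Ccr6 had means of 2.31 to 4.37 and 2.42 to 3.32 in the other 5 groups. Both passed the level for testing only through the mature Vg2+ arrays, so their being tested fixed the direction of this contrast. The difference for Inka1, 2.43, was called narrowly (adjusted p = 0.027), and its adjusted p rose to between 0.0506 and 0.0806 without any of 5 arrays, which were CD24+CD73+ replicates 1 and 3 and CD24-CD73+ replicate 2 of Vg1.1+ cells and CD24-CD73+ replicates 3 and 4 of Vg2+ cells.

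Some genes of the interleukin 17 programme rose in Vg1.1+ cells. Of 16 tested, 6 rose, 3 fell and 7 were not called, with a median of 0.55, against 13 and 3 with a median of 1.80 in Vg2+ cells, where 10.3% of all genes rose and 9.91% fell, and 9 of the 16 steps were called lower in Vg1.1+ cells. Il23r, Ccr6, Il17a and Il17f passed the level for testing only through the mature Vg2+ arrays. Their being tested therefore fixed the direction of their Vg2+ rise and of the contrast with it. Il23r, the receptor chain for interleukin 23, read 2.61, 2.25 and 2.28, then 3.33, 4.83, 4.76 and 4.54, a difference of 1.99 ± 0.28 (adjusted p = 4.3e-05), while Vg2+ cells reached a mean of 9.27 ± 0.28 (SD, n = 4). Blk, a Src-family kinase of these cells, rose by 1.64 ± 0.32 (adjusted p = 0.00128), Tmem176a, an endosomal channel, by 1.19 ± 0.20 (adjusted p = 2.3e-04), and Il1r1, the interleukin 1 receptor, by 1.04 ± 0.25 (adjusted p = 0.00797). Their Vg2+ steps were 3.76, 4.72 and 4.64, and each difference of steps was called (adjusted p = 0.00451, 2.6e-08 and 4.4e-07). Il17a itself read 3.08 to 3.59 and 3.17 to 4.46, a difference of 0.56 that was not called (adjusted p = 0.16), and Il17f gave 0.23 (adjusted p = 0.49).

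Sox13, an early gamma-delta factor of this programme, rose narrowly by 0.54 ± 0.17 (adjusted p = 0.0416), and adjusted p was 0.0571 to 0.135 when any of 6 arrays, all but CD24-CD73+ replicate 2, was left out. Sox4, its relative, fell by 1.55 ± 0.14 (adjusted p = 9.5e-08), and so did the Ets factor Etv5, by 1.75 ± 0.22 (adjusted p = 1.1e-05). Both are needed for interleukin 17 producing gamma-delta cells in mice. Both also fell in Vg2+ cells, by 1.68 and 1.74, and neither step was called different.

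The gene with the largest fall was Cpa3. Cpa3, the mast-cell carboxypeptidase, read 6.50, 7.15 and 6.97, then 3.76, 3.54, 3.66 and 3.26, and fell by 3.32 ± 0.21 (adjusted p = 7.0e-10). It had already read 8.51 ± 0.31 (SD, n = 4) in CD24+CD73- cells. Kit, the stem cell factor receptor, read 7.68, 7.71 and 7.73, then 5.25, 5.83, 6.07 and 5.82, and fell by 1.96 ± 0.18 (adjusted p = 2.2e-07), against 5.66 ± 0.09 in CD24+CD73- cells, so it was high only in the middle stage. Cd200r1, Mctp1, a calcium-binding membrane protein, and Ddc, the decarboxylase that makes dopamine and serotonin, had the same course, with CD24+CD73- means of 4.24, 3.82 and 4.12, CD24+CD73+ means of 6.78, 6.70 and 6.81 and CD24-CD73+ means of 4.70, 4.73 and 4.87. Mctp1 fell by 1.97 ± 0.21 (adjusted p = 9.9e-07) and Ddc by 1.94 ± 0.15 (adjusted p = 2.8e-08).

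Cpa3 and Kit belong to the list of progenitor and mast-associated genes, of which 2 of 7 tested rose and 2 fell, with a median of -0.16. The risers were Hhex, described with the transcription factors, and Lmo2, a LIM-only factor of progenitors, by 0.38 (adjusted p = 0.0433, but 0.0578 to 0.226 without any array other than CD24-CD73+ replicate 3, which leaves 1 riser). Cpa3 and Kit are also markers of mast cells. Of 12 mast-cell markers 10 were measured and 2, Cpa3 and Kit, could be tested, and 6 of the 10 lay below the table median on all 7 arrays. The differences of the 8 untested members lay above 0, from 0.10 to 1.28. All 4 CD24-CD73+ arrays were above all 3 CD24+CD73+ arrays for 3 of them, the tryptase Tpsb2 (1.28), the histamine-making enzyme Hdc (0.53) and the IgE receptor chain Ms4a2 (0.46). Differences above 0 were common among untested genes, since 38.1% of all genes, tested and untested together, lay below 0, against 56.2% of tested genes. The share of untested genes with all 4 arrays above was not computed, and the 8.79% given above covers tested genes only. The 3 markers without overlap therefore have no share to be read against. Neither step was called different from Vg2+ cells, where Cpa3 fell by 3.61 and Kit by 2.02. P2rx7, an ATP-gated channel, fell by 1.78 ± 0.21 (adjusted p = 5.7e-06), and Scin, an actin-severing protein, by 1.76 ± 0.23 (adjusted p = 1.6e-05). Trpm1, a cation channel, fell by 1.54 ± 0.13 (adjusted p = 3.7e-08) and lay between 6.30 and 6.35, then between 4.67 and 4.90. H1f5, a linker histone, had the second largest fall, 2.16 ± 0.57, on a wide spread of 5.14, 6.72, 7.94 and 7.07. Its adjusted p of 0.0152 became 0.0703 without CD24+CD73+ replicate 1, 0.0584 without replicate 3 and 0.0529 without CD24-CD73+ replicate 1.

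Among 21 tested transcripts induced by antigen-receptor signalling, 7 fell, 1 rose and 13 were not called, with a median of -0.37, and 4 fell without CD24+CD73+ replicate 1. The 3 Nr4a nuclear receptors, which are switched on early after receptor engagement, all fell. Nr4a1 (Nur77) read 7.15, 7.44 and 7.33, then 4.97, 5.45, 5.87 and 5.21, a difference of -1.93 ± 0.39 (adjusted p = 0.00168), and Nr4a2 and Nr4a3 gave -1.62 ± 0.31 (adjusted p = 0.00126) and -0.88 ± 0.11 (adjusted p = 7.6e-06). Ikzf2 (Helios) fell by 1.75 ± 0.29 (adjusted p = 2.7e-04). Id3, which restrains E proteins after receptor signalling, read 9.43, 8.87 and 9.14, then 6.42, 8.27, 8.39 and 8.19. Its fall of 1.33 ± 0.41 was narrow (adjusted p = 0.0393) and gave 0.0651 to 0.161 without any of the 3 CD24+CD73+ arrays or without CD24-CD73+ replicate 1. Egr2, an early growth response factor upstream of Id3, read 7.99, 7.67 and 7.92, then 6.26, 6.71, 8.10 and 8.00, so the groups overlapped and the difference of -0.59 was not called (adjusted p = 0.452). Irf4, the rising member, gained 0.68 ± 0.13 (adjusted p = 0.00113).

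Among 30 tested genes of CD3 and proximal receptor signalling, 4 fell, none rose, and the median was -0.43; 8 fell without CD24-CD73+ replicate 3. Rasgrp1, which activates Ras below the receptor, read 9.37, 9.36 and 9.33, then 7.01, 7.48, 7.76 and 7.46, and fell by 1.92 ± 0.20 (adjusted p = 1.1e-06). In Vg2+ cells its step was -0.22 and not called, and the steps differed by -1.71 ± 0.28 (adjusted p = 4.7e-04). The adaptor Nck2 fell by 1.18 ± 0.17 (adjusted p = 5.1e-05) and Ubash3a, a phosphatase that damps receptor signals, fell by 0.87 ± 0.13 (adjusted p = 8.1e-05). Themis, a thymocyte selection protein, fell from a mean of 8.51 to 7.51 (SE of the difference 0.24, adjusted p = 0.00661). The kinase Zap70 gave 0.08 (adjusted p = 0.875). Dusp4, a phosphatase of the MAP kinase pathway, fell by 1.44 ± 0.12 (adjusted p = 4.4e-08), the only call among 14 feedback inhibitors tested.

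Transcription factors changed in both directions. Of 61 tested T-lineage factors 11 rose and 18 fell, with a median of -0.30, and 11 fell without CD24+CD73+ replicate 1. Id2, the E-protein inhibitor of innate-like lymphocytes, read 8.35, 8.40 and 8.17, then 9.57, 10.39, 9.64 and 10.09, and rose by 1.61 ± 0.25 (adjusted p = 1.2e-04). Hhex, a homeobox factor of progenitors, rose by 1.82 ± 0.20 (adjusted p = 2.5e-06), and Lmo4, a LIM-only cofactor, by 1.42 ± 0.16 (adjusted p = 2.1e-06). Hhex had a higher step than in Vg2+ cells (1.30 ± 0.28, adjusted p = 0.00672), whereas Id2 moved by -0.01 relative to them and was not called.

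Hdac9, a histone deacetylase, read 7.60, 7.68 and 7.39, then 4.81, 5.84, 5.71 and 5.70, and fell by 2.05 ± 0.21 (adjusted p = 6.7e-07). Ahr, the aryl hydrocarbon receptor, fell by 1.39 ± 0.11 (adjusted p = 3.4e-08), and Bcl6, the follicular helper repressor, by 1.05 ± 0.25 (adjusted p = 0.00646). Lef1, which with its relative Tcf7 shapes early T cells, fell by 1.05 ± 0.26 (adjusted p = 0.00994, or 0.0586 without CD24+CD73+ replicate 1). Among chromatin regulators 1 rose and 9 fell of 33, among them Ezh2, the Polycomb methyltransferase, by 1.19 ± 0.13 (adjusted p = 1.9e-06).

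**Figure D4:**
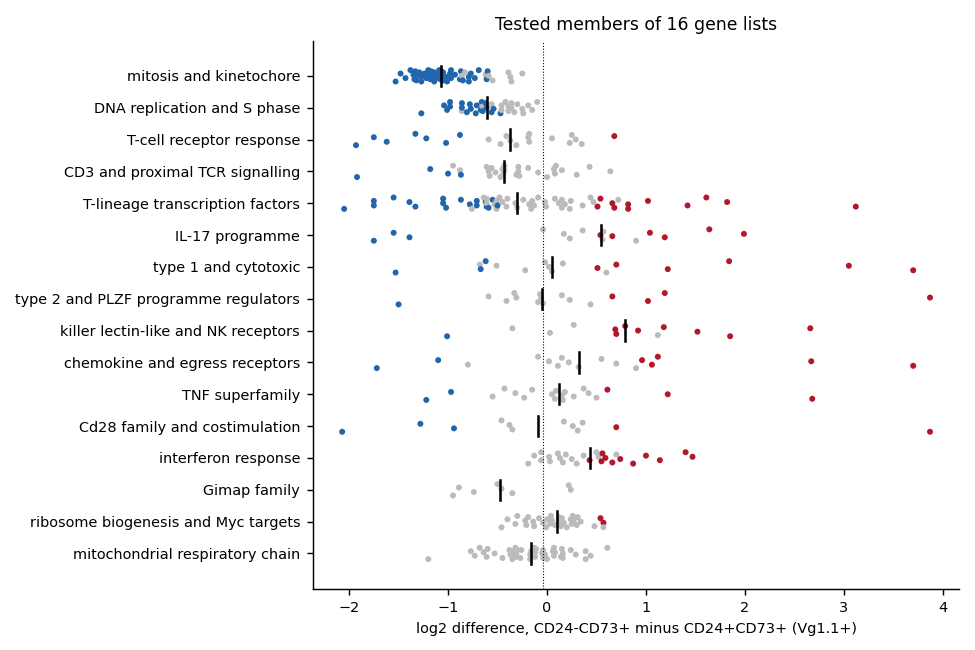
Difference with CD24 loss (log2 RMA units, horizontal axis) of every tested member of 16 gene lists, with 1 point per gene. Red points rose, blue points fell and grey points were not called; black bars are list medians and the dotted line is the median of all tested genes, -0.04. Mitosis genes have a median of -1.07.

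Most cell-cycle genes fell. Of 57 tested mitosis and kinetochore genes 48 fell and none rose, with a median of -1.07 against -0.04 over all genes and 6.92% of all genes called lower. The count stayed between 46 and 49 whichever array was left out. The mean over the 57 genes was 6.78, 6.93 and 6.78 on the CD24+CD73+ arrays and 5.57, 5.93, 5.92 and 5.86 on the CD24-CD73+ arrays, after 6.95 to 7.11 in CD24+CD73- cells. Prc1, which bundles the central spindle, read 6.85, 7.05 and 6.71, then 4.50, 5.36, 5.93 and 5.58, and fell by 1.53 ± 0.25 (adjusted p = 1.8e-04). The spindle kinesins Kif11, Kif4 and Kif23 fell, with differences of -1.48 ± 0.27, -1.43 ± 0.14 and -1.38 ± 0.19 (adjusted p = 7.2e-04, 5.8e-07 and 2.3e-05). Top2a, which untangles sister chromosomes, fell by 1.35 ± 0.20 (adjusted p = 5.2e-05) and the condensin subunit Ncaph fell by 1.34 (adjusted p = 1.2e-06). In Vg2+ cells 51 of the 57 fell, with a median of -1.39, and 5 of the 57 had steps called higher in Vg1.1+ cells.

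Among 37 tested DNA replication genes 20 fell, none rose and 17 were not called, with a median of -0.61, and 13 fell without either replicate 1 array. Their mean went from 6.34 to 6.36 on the CD24+CD73+ arrays to 5.51, 5.91, 5.79 and 5.81. Rrm1, the large subunit of ribonucleotide reductase, fell by 1.27 ± 0.26 (adjusted p = 0.00206), and Uhrf1, which copies DNA methylation to the new strand, by 1.04 ± 0.25 (adjusted p = 0.00756). Tk1, thymidine kinase, read 5.58, 5.15 and 5.50, then 4.83, 4.45, 4.77 and 4.14, which did not overlap and yet was not called (-0.86 ± 0.39, adjusted p = 0.171). Among inhibitors of the cycle, of 21 tested 1 rose and 6 fell, and 3 fell without CD24+CD73+ replicate 1 and 2 rose without CD24-CD73+ replicate 1. The riser was the antiproliferative gene Tob1, by 0.93 ± 0.11 (adjusted p = 5.3e-06), and Cdkn1b (p27) gave -0.42 (adjusted p = 0.357).

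Cell-cycle promoters carry known elements, and those of a few falling genes are shown. The CHR element (TTTGAA) and the CCAAT box (CCAAT) are bound in G2 and mitosis genes by the DREAM and NF-Y complexes, and the E2F site (TTTNNCGC) is bound in S phase genes; none of these strings contains another. They were searched on both strands in the 250 bases before each start site, from RefSeq on GRCm38.p6. Of the 57 mitosis genes 48 matched, with 55 promoters. A CHR match lay in 34.5% of them and a CCAAT match in 63.6%, against 10.6% and 35.6% of the 8986 promoters of all tested genes. Of the S phase genes 31 of 37 matched, with 36 promoters, of which 30.6% held an E2F match and 69.4% a CCAAT match, against 7.31% and 35.6%. Kif11 (chr19:37376132-37376381, plus strand) was chosen because it holds both a CHR and a CCAAT match, Kif4 (chrX:100625815-100626064, plus strand) because it holds CCAAT matches and no CHR match, and Uhrf1 (chr17:56303087-56303336, plus strand) because 1 of its 2 listed promoters holds an E2F and a CCAAT match. Capitals mark the matches, on either strand, and a match describes the letters only.
Kif11: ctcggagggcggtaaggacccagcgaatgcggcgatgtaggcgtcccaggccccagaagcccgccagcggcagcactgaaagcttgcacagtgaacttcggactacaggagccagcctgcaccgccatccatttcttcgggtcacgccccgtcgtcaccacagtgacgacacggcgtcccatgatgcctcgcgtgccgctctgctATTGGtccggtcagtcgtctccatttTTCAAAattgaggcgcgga
Kif4: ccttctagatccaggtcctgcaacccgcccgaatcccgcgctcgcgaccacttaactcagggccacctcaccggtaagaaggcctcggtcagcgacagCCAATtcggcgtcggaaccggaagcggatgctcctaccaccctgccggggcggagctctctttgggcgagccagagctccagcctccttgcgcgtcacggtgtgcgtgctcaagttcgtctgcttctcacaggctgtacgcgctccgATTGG
Uhrf1: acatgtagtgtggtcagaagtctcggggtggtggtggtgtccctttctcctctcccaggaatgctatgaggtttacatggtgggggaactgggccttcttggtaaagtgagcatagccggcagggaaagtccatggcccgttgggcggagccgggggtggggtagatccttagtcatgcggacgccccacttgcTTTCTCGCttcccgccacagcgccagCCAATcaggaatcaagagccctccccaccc

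Interferon response genes were higher on 3 of the 4 mature arrays. Of 27 tested 11 rose and none fell, with a median of 0.43 and 4.28% of all genes called higher. Their mean was 6.51, 6.43 and 6.37 on the CD24+CD73+ arrays and 6.47, 7.06, 7.04 and 6.99 on the CD24-CD73+ arrays, so that replicate 1, the array of narrow spread, lay among the immature arrays. Without it 14 rose, and the count was 7 without CD24+CD73+ replicate 2 or CD24-CD73+ replicate 2 and 6 without CD24+CD73+ replicate 3. Ifi27l2a, an interferon-induced membrane protein gene, read 9.79, 10.04 and 9.65, then 11.02, 11.50, 11.08 and 11.57, and rose by 1.47 ± 0.19 (adjusted p = 1.4e-05). Oasl2 and Oas2, of the family that senses double-stranded RNA, rose by 1.40 ± 0.14 and 1.14 ± 0.14 (adjusted p = 7.0e-07 and 1.0e-05). Tgtp1, a T-cell GTPase, rose from a mean of 4.05 to 5.05 (SE of the difference 0.13, adjusted p = 1.0e-05) and the guanylate binding protein Gbp2 by 0.87 ± 0.14 (adjusted p = 2.6e-04). Ifi27l2a and Oas2 had higher steps than in Vg2+ cells (1.42 ± 0.26 and 1.02 ± 0.19, adjusted p = 0.00154 and 0.00259). Irf1 and Irf9, factors that carry the interferon signal, gave -0.13 and -0.06 and were not called (adjusted p = 0.801 and 0.897), though with array weights Irf9 turned to 0.33 (adjusted p = 0.0302).

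The interferon-stimulated response element (GAAA, any 2 bases, GAAA) was searched in the same way. It lay in 38.5% of 26 promoters from 19 matched genes of the 27, against 2.57% of all tested promoters. The promoters of Tgtp1 (chr11:48992247-48992496, minus strand) and Gbp2 (chr3:142620413-142620662, plus strand) are shown as called genes with a match, in capitals. Oasl2, which rose by more, held none in its window.
Tgtp1: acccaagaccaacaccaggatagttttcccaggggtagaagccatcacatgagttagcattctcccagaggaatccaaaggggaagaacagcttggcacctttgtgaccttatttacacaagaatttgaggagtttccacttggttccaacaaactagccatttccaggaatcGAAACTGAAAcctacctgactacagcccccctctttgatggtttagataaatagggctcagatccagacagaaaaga
Gbp2: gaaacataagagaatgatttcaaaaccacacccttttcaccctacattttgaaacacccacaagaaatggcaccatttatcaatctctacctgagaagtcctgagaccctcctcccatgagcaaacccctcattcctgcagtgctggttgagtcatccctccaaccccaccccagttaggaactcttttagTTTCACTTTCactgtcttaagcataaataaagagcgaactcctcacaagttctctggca

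**Figure D5:**
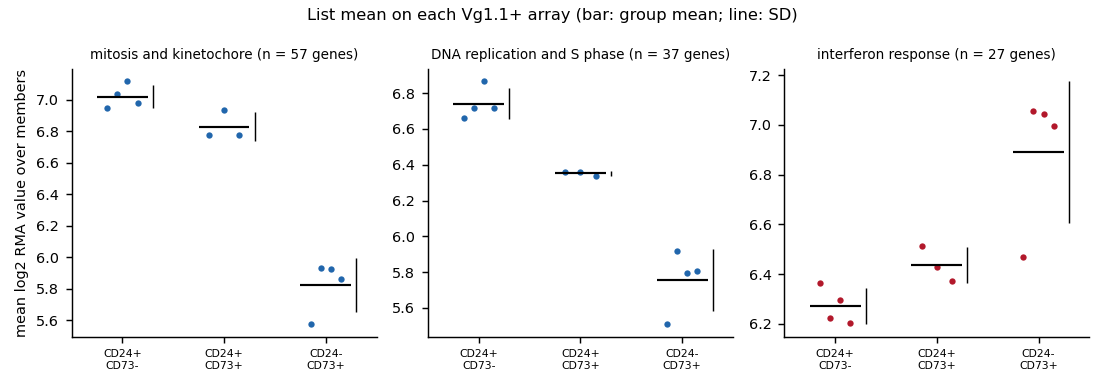
Mean log2 RMA value over the tested members of 3 lists (vertical axis, a separate scale in each panel) on each Vg1.1+ array, by CD24 and CD73. Points are arrays, bars group means and lines SD; the CD24-CD73+ point at 6.47 in the interferon panel is replicate 1, while the other 3 lie at 6.99 to 7.06.

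Metabolic and survival lists differed in their share of calls, to be read beside 11.2% of all tested genes called in either direction. None of 48 respiratory chain genes was called by limma (5 had an unadjusted p under 0.05), and their median of -0.16 turned to 0.03 after cyclic loess. Of 34 ribosome biogenesis and Myc target genes 2 rose and none fell (4 rose without CD24-CD73+ replicate 1 and 1 without CD24+CD73+ replicate 3), and Myc itself overlapped, with 7.79 to 8.35 and 6.78 to 8.63. The overlap of Myc came from CD24-CD73+ replicate 1 alone, at 6.78. Of 17 glycolysis genes 2 rose and 2 fell; 1 rose without CD24+CD73+ replicate 1 or 2 or CD24-CD73+ replicate 3 or 4, and 1 fell without CD24+CD73+ replicate 1. Ldhb, a lactate dehydrogenase subunit, fell by 1.03 ± 0.17 (adjusted p = 2.4e-04), and Pdk1, which blocks pyruvate entry into mitochondria, rose by 0.55 ± 0.12 (adjusted p = 0.00346). The list of cholesterol and fatty acid synthesis gave 1 higher and 4 lower calls with all arrays. In cholesterol handling, the synthesis enzyme Hmgcs1 fell by 1.15 ± 0.24 (adjusted p = 0.00206) and the exporter Abca1 rose by 1.21 ± 0.16 (adjusted p = 2.3e-05). Of 23 tested Bcl2 family and death genes 1 rose and 2 fell, against 4.28% and 6.92% of all genes. The riser was lost without replicate 1 or 2 of either group or CD24+CD73+ replicate 3, and 1 fell without CD24+CD73+ replicate 1 or 3. Bcl2, the survival factor, fell by 0.75 ± 0.15 (adjusted p = 0.00174). None of 8 Gimap GTPases, 12 class I antigen processing genes, 10 SLAM family genes or 5 chemokines was called by limma. At an unadjusted p under 0.05 the counts were 5, 0, 1 and 1. Beside 11.2% of all genes called, an absence of calls in lists this short says little about them.

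Markers of other cells were examined beside these results. Granulocyte transcripts were high on 1 array, CD24-CD73+ replicate 1, where S100a8 read 6.20 and S100a9 5.80, against 1.81 to 2.27 and 2.63 to 3.88 on the other 3. The summed level of the 10 granulocyte markers ran from 6.25 to 6.54 and from 6.37 to 8.00 (log2 of the sum), and 6 of the 10 lay below the table median on all 7 arrays. Myeloid and dendritic markers summed to 8.92 to 9.06 and 8.70 to 9.16, with 0 of 5 tested members called and 12 of 16 measured members below the table median. B-cell markers summed to 8.25 to 8.62 and 7.78 to 8.00, and Cd79b, a B-cell receptor chain, fell by 1.03 ± 0.29 (adjusted p = 0.0243). Cd79b was the only one of 3 tested members called, and 6 of the other 8 measured members had differences above 0, such as 0.31 for Pax5 (adjusted p = 0.365) and 0.60 for the untested Ms4a1. As with the mast-cell markers, differences above 0 were common among untested genes. The Cd79b call gave 0.141 without CD24+CD73+ replicate 1, 0.0577 without replicate 3 and 0.0757 without CD24-CD73+ replicate 1.

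Markers of alpha-beta lineage thymocytes summed to 9.07 to 9.36 and then 8.52 to 8.89. Of 8 tested 2 fell, Arpp21 by 1.39 ± 0.21 (adjusted p = 7.8e-05) and Themis, and 1 rose. The riser was Cd8b1, a chain of CD8, by 1.18 ± 0.30 (adjusted p = 0.0113, or 0.0725 without CD24+CD73+ replicate 2). Mature alpha-beta and NKT markers summed to 7.47 to 7.59 and then 8.04 to 8.25, with 3 of 5 tested called higher (1 without CD24+CD73+ replicate 2). Natural killer cell markers summed to 7.71 to 7.76 and 7.74 to 7.85, and Ncr1, their defining receptor, lay at 1.82 to 2.11 and 2.43 to 3.17, below the table median. The sum joined opposite moves. Eomes and Prf1 gave -0.62 and -0.22, and the other measured members lay above 0, from 0.11 for S1pr5 to 1.74 for Gzmb. Gzmb, Ncr1, Itga2 and Klrg1 were not tested, and differences above 0 were common among untested genes. Thymic epithelial markers gave 1 call each way of 7, with Epcam down by 1.08 ± 0.18 (adjusted p = 3.0e-04) and Krt14 up by 0.89 ± 0.22 (adjusted p = 0.00996). The part of other cells in the results above was not tested.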

How the data were processed

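RNA from sorted thymocytes was hybridised to Affymetrix exon arrays. The deposited values are log2 expression values per probe set, made by the authors with RMA in the oligo package, per the submitters' processing notes; versions and genome build are not given in the sources used here. Of 16755 probe sets, 14996 carried 1 symbol, 1019 several and 740 none in the platform annotation. Several-symbol probe sets, among them those of CD24 and the gamma segments, were not used here. The probe set with the highest mean stood for each of 135 genes that had several.

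A gene was tested if it exceeded the table median of 4.55 on at least 3 arrays (8545 of 14860). limma 3.58.1 (R 4.3.3) was fitted to 6 group means over all 22 arrays, with Benjamini-Hochberg adjustment at 0.05. On data simulated for this step over 8545 genes, 100% of changes of 2 log2 units and 77% of those of 1 were recovered, with 9 false calls of 186. Tables used Python 3.11.15, pandas 2.3.3 and numpy 2.4.6. The number of arrays limits precision.

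Genes named are the 25 largest differences in each direction (predicted genes left out), up to 8 members per gene list, the 10 largest differences between subsets in each direction, and regulators of gamma-delta differentiation; A630023P12Rik was named after its value was seen, and the promoters shown were chosen after their matches were seen. The comparison, its members and the lists were chosen with earlier results of these data known. Alternatives covered filters, normalisation, array weights, a replicate block and leaving out each array. The sex and age of the mice are per the labels.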

Additional observations from a re-analysis of the deposited data

Results flagged for a closer look

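In the group of 4 CD24-CD73+ arrays, 1 array lay apart from the other 3 for 22 of the 137 named genes by Dixon's test, of which chance alone gives about 1 in 20, and 19 of the 22 were replicate 1. Its SD over all probe sets, 1.61 against 1.96 to 2.03, lay apart as well, as did that of Vg2+ CD24+CD73+ replicate 3 (1.71 against 1.91 to 1.95). Replicate 1 was lower than the other 3 arrays for Abca1 (6.70 against 7.45 to 7.57), Cd3g (10.65 against 11.17 to 11.20), Cd79b (5.94 against 7.09 to 7.20), Cxcr4 (6.22 against 6.88 or more), Hdac9 (4.81 against 5.70 to 5.84), Id3 (6.42 against 8.19 to 8.39), Il17rb (6.96 against 7.93 to 8.00), Il18rap (5.19 against 6.47 to 6.67), Kif23 (5.06 against 5.87 to 5.95), Mctp1 (4.03 against 4.90 to 5.05), Myc (6.78 against 8.45 to 8.63), Nt5e (7.45 against 8.57 to 8.74), Slfn1 (7.34 against 9.10 to 9.26), Stat4 (6.62 against 7.06 to 7.15) and Top2a (7.34 against 7.87 to 7.93). It was higher for Ccr6 (4.14 against 2.99 to 3.09), Hlf (4.46 against 3.79 to 3.89), S100a8 (6.20 against 1.81 to 2.27) and Scin (3.02 against 2.21 to 2.33). The other 3 cases were Tmem176b in replicate 4 (5.80 against 5.97 to 6.00), Uhrf1 in replicate 3 (6.99 against 6.51 to 6.58) and Zdhhc2 in replicate 2 (3.54 against 2.93 to 2.96).

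The step with CD24 loss differed between Vg1.1+ and Vg2+ cells for 45 named genes, tested by the interaction term in limma over all tested genes, of which 5.06% differed. The count of 45 was partly fixed by selection, since the 10 largest called differences in each direction were named for that reason. Some of these genes also passed the level for testing only through the mature arrays of the subset where they were high, as given above. In log2 units, Vg1.1+ step minus Vg2+ step, the 24 genes with a higher step were Fabp7 4.82, Il4 4.12, Cd40lg 3.66, Vdr 2.83, Il17rb 2.70, Flrt2 2.64, Il21 2.50, Trpm6 2.46, Inka1 2.43, Il13 2.19, Ntrk3 2.13, A630023P12Rik 2.01, Adh1 1.96, St8sia6 1.86, Nrp1 1.80, Prg4 1.73, Slfn1 1.62, Ifi27l2a 1.42, Hhex 1.30, Cxcr3 1.23, Oas2 1.02, Abca1 0.95, Irf4 0.77 and Lmo4 0.76. The 21 with a lower step were Il23r -4.68, Ccr6 -4.18, Abi3bp -3.98, Il1r1 -3.60, Tmem176a -3.53, Tmem176b -3.40, Pxdc1 -3.35, Cysltr1 -3.19, Hlf -2.92, Zdhhc2 -2.77, Ccr2 -2.41, Blk -2.12, Il17f -2.06, Cd79b -2.02, Rasgrp1 -1.71, Klrb1f -1.39, Gpr183 -1.31, Il7r -1.12, Il18r1 -1.03, Cd44 -0.88 and Stat4 -0.77. The calls for Cxcr3, Slfn1 and Lmo4 were narrow (adjusted p = 0.0428, 0.0423 and 0.0421), and each was lost when any of 11, 12 or 10 of the 15 arrays of these groups was left out. Stat4 was lost without any of 3 arrays, with adjusted p between 0.0568 and 0.0864, and Klrb1f without either of 2, at 0.051 and 0.0844.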

How the results depend on the processing

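The 957 calls (366 higher, 591 lower) and the 432 differences between subsets depended on how the spread was estimated. With the groups of each contrast alone the counts were 496, 192, 304 and 236. Array weights, whose estimation stopped before converging, gave 2608, 1180, 1428 and 1048. Requiring a fold of at least 2 left 257, 114, 143 and 214. Arrays numbered 1 to 3 alone gave 190 differences. Leaving out 1 array gave 623 to 1223 calls (234 to 435 higher, 388 to 788 lower) and 265 to 578 differences; both lowest pairs, 623 calls with 265 or 276 differences, came without CD24+CD73+ replicate 1 or 3. A fit with the replicate block gave 689 calls (249 higher, 440 lower) and 250 differences. In the labels same-numbered arrays share only a number. The deviations of same-numbered pairs correlated at r = -0.518, -0.049 and -0.115, and those of other pairs at -0.341 to 0.468. With 3 arrays a side these values cannot tell whether same-numbered arrays were paired. No filter, a stricter filter, the trend and robust options, cyclic loess, quantile normalisation, the SD of each array as a covariate, leaving out the arrays of narrowest spread and all probe sets each kept the 957 within 1.5 times. Among named genes 1 value turned sign, Irf9 with array weights (0.33); the cause was not tested. Cyclic loess moved the median of all genes from -0.045 to 0.008 and the share below 0 from 56.2% to 48.7%. The deposited values carry no detection call, and RMA values compress differences near or below 4.55, so small changes there may have been missed.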
